A study of Mus musculus with 12 samples.

Results

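The 35 genes described here belong to the integrated stress response and the unfolded protein response, and were followed in RNA from 12 mouse lung tumors. They were chosen by gene symbol, with earlier results of these data known. Of them, 14 form the arm of the transcription factor ATF4 and 21 the endoplasmic reticulum (ER) arm. The ER arm holds 3 stress sensors or their effector, 14 chaperones and folding factors and 4 genes of ER-associated degradation (ERAD). All 35 are among the 39017 genes of the count table and all passed the filter on low counts that kept 16527 genes, so no member was lost. The tumors form 4 groups of 3. The KP mice carry K-rasLSL-G12D/WT and p53Fl/Fl with a CCSP-rtTA transgene, in which the promoter of a club cell gene drives the doxycycline-dependent activator, and the KPG1 mice carry Glut1Fl/Fl (floxed *Slc2a1*) in addition; by the study's methods, controls without that genotype can be heterozygous for the floxed allele. Every mouse, of the C57BL/6 strain, received 6000 viral units of the same lentivirus, Lenti.TRE-PPARaD13_PGK-Cre, which brings Cre and a doxycycline-inducible dominant negative PPARα (PPARαΔ13), and all tumors were taken 26 weeks after initiation. The groups named KP-PPARαΔ13 and KPG1-PPARαΔ13 ate pellets with 625 mg/kg doxycycline for 15 days, and KP and KPG1 a regular diet, so that diet and transgene cannot be told apart. By the mouse number in the labels the 12 tumors came from 9 mice, 2 each for KP, KPG1 and KPG1-PPARαΔ13 and 3 for KP-PPARαΔ13. The KP mice were all female and the KPG1 mice all male, so that sex and genotype cannot be told apart on the regular diet; females gave 1 of the 3 KP-PPARαΔ13 and 2 of the 3 KPG1-PPARαΔ13 tumors.

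Cells with unfolded protein in the ER, too few amino acids or other damage slow their protein synthesis by phosphorylating the translation initiation factor eIF2 through kinases such as PERK (*Eif2ak3*) and GCN2 (*Eif2ak4*), while ATF4 is made in larger amounts and switches on genes of amino acid supply, redox balance and recovery. The ER itself reports misfolding through PERK, IRE1 (*Ern1*), which splices the messenger RNA of *Xbp1*, and ATF6, which together raise chaperones and the machinery that removes misfolded proteins. Alveolar type 2 cells, from which many of these lung tumors start, secrete surfactant and so use the ER heavily. Gene counts give the amount of RNA of each gene. They do not show eIF2 phosphorylation, *Xbp1* splicing or the cleavage of ATF6, and in a bulk tumor fewer cells of a type and less RNA per cell cannot be told apart.

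The cells were those left after immune cells had been removed with CD45 beads from dissociated tumors. The total count was 25263794 to 32654223 per tumor, and the 35 genes together took 0.660% to 0.866% of it. The epithelial gene *Epcam* lay at 298 to 623 counts scaled to a common library size with TMM factors (CPM, the unit of all levels below unless another is named) and the surfactant gene *Sftpc* at 5540 to 29952, while *Ptprc*, the gene of CD45, lay at 1.88 to 31.5. Plasma cells, which express the unfolded protein response strongly, left little RNA: of their 8 markers, *Tnfrsf17* was at 0 in 10 tumors, *Pou2af1* was at 0 in 2, and *Igj*, *Mzb1*, *Ighm* and *Igkc* did not exceed 3.53 CPM in any tumor. *Sdc1*, which epithelium expresses as well, supplied nearly all of that list with 878 to 1893 CPM, and *Derl3* had 2.01 to 7.70. Among the genes that the design targets, *Slc2a1* overlapped between KPG1 (30.2 to 64.0 CPM) and KP (35.3 to 57.7) on the regular diet and was lower in KPG1-PPARαΔ13 (23.7 to 54.5) than in KP-PPARαΔ13 (108.1 to 153) without overlap. *Ppara*, whose reads can include the transgene, lay at 2.71, 64.6 and 246 CPM in KP-PPARαΔ13, the first below and the others above every KP tumor (9.54 to 15.7), and at 8.90 to 19.2 in KPG1-PPARαΔ13, overlapping KPG1 (7.24 to 15.3). Group names below are those of the labels.

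To compare genes with each other, the counts were also divided by exon length (RPKM). The folding machinery stood at the top. *Calr* and *Pdia3*, a lectin chaperone of the ER and its partner disulfide isomerase, averaged 285 ± 54.7 and 281 ± 52.5 RPKM (SD over the 12 tumors), followed by the chaperones *Hsp90b1* (GRP94) with 234 ± 30.9 and *Hspa5* (BiP) with 219.8 ± 56.1. The median over the 14 chaperones and folding factors was 56.4 RPKM, over the 4 ERAD genes 30.8, over the 14 genes of the ATF4 arm 15.9 and over the 3 sensors and effectors 14.6. In the ATF4 arm, *Atf4* itself was highest with 103.6 ± 24.0 RPKM, and the glutathione-degrading enzyme *Chac1* (2.61 ± 1.19 RPKM) and the transcription factor *Cebpb* (2.87 ± 0.834 RPKM) were the lowest of all 35. With 46 counts in its lowest tumor, *Chac1* was also the member with the fewest reads.

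Many ER stress genes are controlled by the ER stress element (ERSE), to which ATF6 and XBP1 bind, and ATF4 targets by the C/EBP-ATF response element (CARE). Both were searched on either strand in windows of 300 bases (250 before and 50 after the gene start) from RefSeq on GRCm38.p6, which held 31 of the 35 genes, *Ppp1r15b*, *Atf6*, *Manf* and *Hyou1* being without an entry. ERSE, taken as CCAAT, 9 bases and CCACG, was found in 39 of 32851 promoters (0.119%) and in 8 of the 18 ER arm genes with a promoter (*Hspa5*, *Calr*, *Hsp90b1*, *Canx*, *Pdia6*, *Dnajc3*, *Creld2* and *Syvn1*), but in 0 of the 13 of the ATF4 arm. CARE, taken as TGATG, 1 base and AA, was found in 1304 promoters (3.97%), among them 4 of the 13 of the ATF4 arm (*Atf3*, *Asns*, *Trib3* and *Chac1*) and 1 of the 18 of the ER arm (*Herpud1*). The letters of ERSE and CARE share no stretch that would make a match of one a match of the other, and each match is a description of letters, not a binding site shown here. Of the ERSE matches, those of 5 genes whose levels are described below are printed 5′ to 3′ on the strand that reads CCAAT, with the motif letters in capitals, and of the CARE matches those of *Asns*, *Chac1* and *Herpud1* on the strand that reads TGATG.
Hspa5 (ERSE, chr2:34772020-34772048, plus strand): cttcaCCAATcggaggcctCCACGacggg
Calr (ERSE, chr8:84847070-84847098, plus strand): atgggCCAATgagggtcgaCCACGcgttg
Dnajc3 (ERSE, chr14:118937822-118937850, plus strand): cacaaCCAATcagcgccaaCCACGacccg
Creld2 (ERSE, chr15:88819515-88819543, minus strand): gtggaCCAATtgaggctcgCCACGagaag
Syvn1 (ERSE, chr19:6046527-6046555, plus strand): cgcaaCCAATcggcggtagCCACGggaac
Asns (CARE, chr6:7693215-7693242, minus strand): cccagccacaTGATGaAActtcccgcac
Chac1 (CARE, chr2:119351039-119351066, minus strand): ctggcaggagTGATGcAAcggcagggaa
Herpud1 (CARE, chr8:94386307-94386334, minus strand): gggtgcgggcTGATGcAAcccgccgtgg

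The ERSE of *Hspa5* ended 47 bases before the RefSeq gene start, that of *Syvn1* 26 bases and that of *Calr* 144 bases before it, and the CARE of *Asns* 16 bases before it. The matches in *Hspa5* and *Asns* lie inside the longer gene models of GENCODE M21, which begin further upstream.

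Before any grouping, the tumors differed widely from each other in these genes. The 2 tumors of the same KP mouse, KP 1 and KP 2, differed by a median of 0.65 on the log2 scale over the 35 genes, the 2 of the same KPG1 mouse (KPG1 1 and KPG1 2) by 0.34, and the 2 of the same KPG1-PPARαΔ13 mouse (replicates 1 and 3) by 0.41. Over 9 pairs of tumors from different mice of the same group the median was 0.40, and over 54 pairs from different groups 0.35. Tumors of the same mouse or group were thus not closer to each other in these genes than tumors of different groups. Over all 16527 genes the 3 medians were 0.39, 0.41 and 0.46 in that order.

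**Figure D1:**
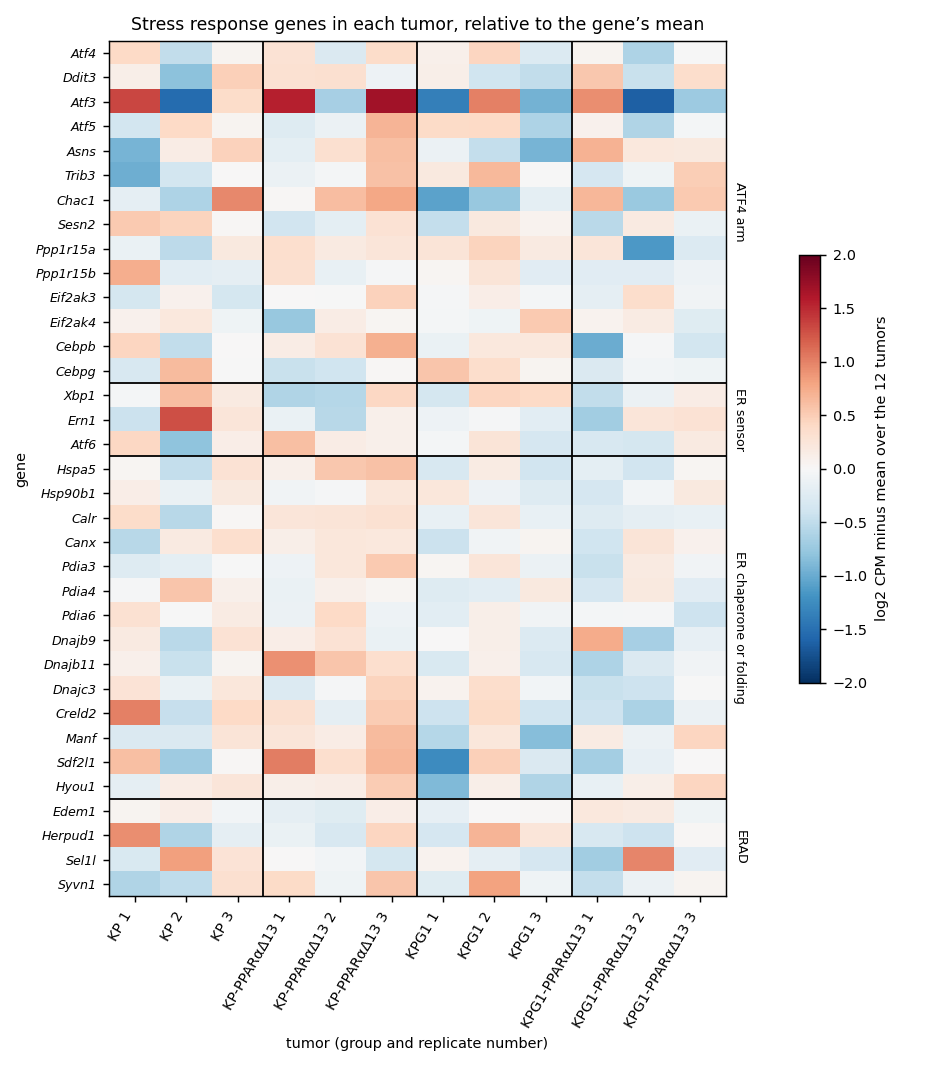
Each row is a gene and each column a tumor, with the color giving the log2 CPM minus the gene's mean over the 12 tumors; horizontal lines part the ATF4 arm, the ER sensors, the chaperones and folding factors and ERAD, and vertical lines the 4 groups. *Atf3* has the strongest colors, with 34.5 to 340.3 CPM, and the columns within a group differ about as much as columns of different groups.

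The gene that varied most was *Atf3*, a stress-inducible repressor of transcription. It had 271, 36.7 and 137 CPM in KP, 312, 67.3 and 340.3 in KP-PPARαΔ13, 41.3, 215 and 55.4 in KPG1 and 204, 34.5 and 64.4 in KPG1-PPARαΔ13. Its highest tumor exceeded its lowest 9.86-fold, its SD over the tumors was 1.27 on the log2 scale (higher than for 91.8% of the genes tested), and all 4 groups overlapped, also within the mice just named. The steadiest members were the ERAD lectin *Edem1*, with 121.4 to 166.2 CPM and an SD of 0.15 (above 0.714% of the genes), and the chaperone *Hsp90b1*, with 741 to 1098 CPM and an SD of 0.19. The median SD was 0.43 in the ATF4 arm, 0.39 in the ER arm and 0.45 over all genes tested. Of the variance of a member over the tumors a median of 32.5% (ATF4 arm) and 29.7% (ER arm) lay between the 4 groups, beside 30.6% for all genes. *Dnajb11*, a co-chaperone of BiP, had the largest share between groups with 71.0%, and *Dnajb9*, another co-chaperone, the smallest with 2.32%.

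In the ATF4 arm, *Atf4* had 313, 169 and 246 CPM in KP, 291, 194 and 305 in KP-PPARαΔ13, 255, 321 and 198 in KPG1 and 248, 154 and 237 in KPG1-PPARαΔ13. The groups overlapped throughout, with KPG1-PPARαΔ13 lowest in mean (213 ± 51.2 CPM, SD, n = 3) and KP-PPARαΔ13 highest (263 ± 60.6). *Ddit3*, which encodes the pro-apoptotic factor CHOP, had 17.2, 8.97 and 21.96 CPM in KP, 19.6, 19.8 and 14.8 in KP-PPARαΔ13, 17.2, 12.01 and 11.3 in KPG1 and 23.1, 11.6 and 20.1 in KPG1-PPARαΔ13. Its levels, too, overlapped between all groups. Of its exon bases 10.9% are shared with *Gm4189* and *Mars* on the opposite strand and a second entry named *Ddit3* on the same strand. *Trib3*, a pseudokinase induced by ATF4 and CHOP, had 10.9, 16.8 and 21.7 CPM in KP, 19.8, 20.9 and 32.2 in KP-PPARαΔ13, 24.7, 33.9 and 21.4 in KPG1 and 17.02, 20.2 and 30.3 in KPG1-PPARαΔ13. KP was the lowest group for *Trib3* in mean (16.5 ± 5.39) and KPG1 the highest (26.7 ± 6.45), which overlapped by KP 3 and KPG1 3.

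*Asns*, asparagine synthetase and a classical ATF4 target, had 25.2, 53.4 and 66.2 CPM in KP, 42.02, 60.1 and 72.4 in KP-PPARαΔ13, 44.1, 34.4 and 25.1 in KPG1 and 77.8, 55.7 and 54.9 in KPG1-PPARαΔ13. Every KPG1-PPARαΔ13 tumor lay above every KPG1 tumor, while KP and KP-PPARαΔ13 overlapped. *Chac1* had 3.39, 2.52 and 7.52 CPM in KP, 3.91, 5.87 and 6.57 in KP-PPARαΔ13, 1.84, 2.27 and 3.37 in KPG1 and 6.11, 2.31 and 5.54 in KPG1-PPARαΔ13. Its KPG1 tumors were low, and KPG1-PPARαΔ13 held a low tumor (replicate 2) beside high ones. The order of group means from lowest to highest was KPG1, KP, KP-PPARαΔ13 and KPG1-PPARαΔ13 for *Asns*, and KPG1, KP, KPG1-PPARαΔ13 and KP-PPARαΔ13 for *Chac1*, with the neighbours in both orders overlapping. The other genes of the arm ranged from 34.0 to 83.5 CPM (*Atf5*, a factor linked to mitochondrial stress), 24.0 to 50.2 (*Sesn2*, an inhibitor of mTORC1 signaling), 61.2 to 108.3 (*Eif2ak3*) and 37.2 to 90.7 (*Eif2ak4*). *Ppp1r15a* and *Ppp1r15b*, the regulatory subunits of the phosphatase that reverses eIF2 phosphorylation, lay at 49.9 to 149.9 and 143.7 to 279.4 CPM, and the bZIP factors *Cebpb* and *Cebpg* at 2.08 to 6.80 and 94.97 to 200.3.

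**Figure D2:**
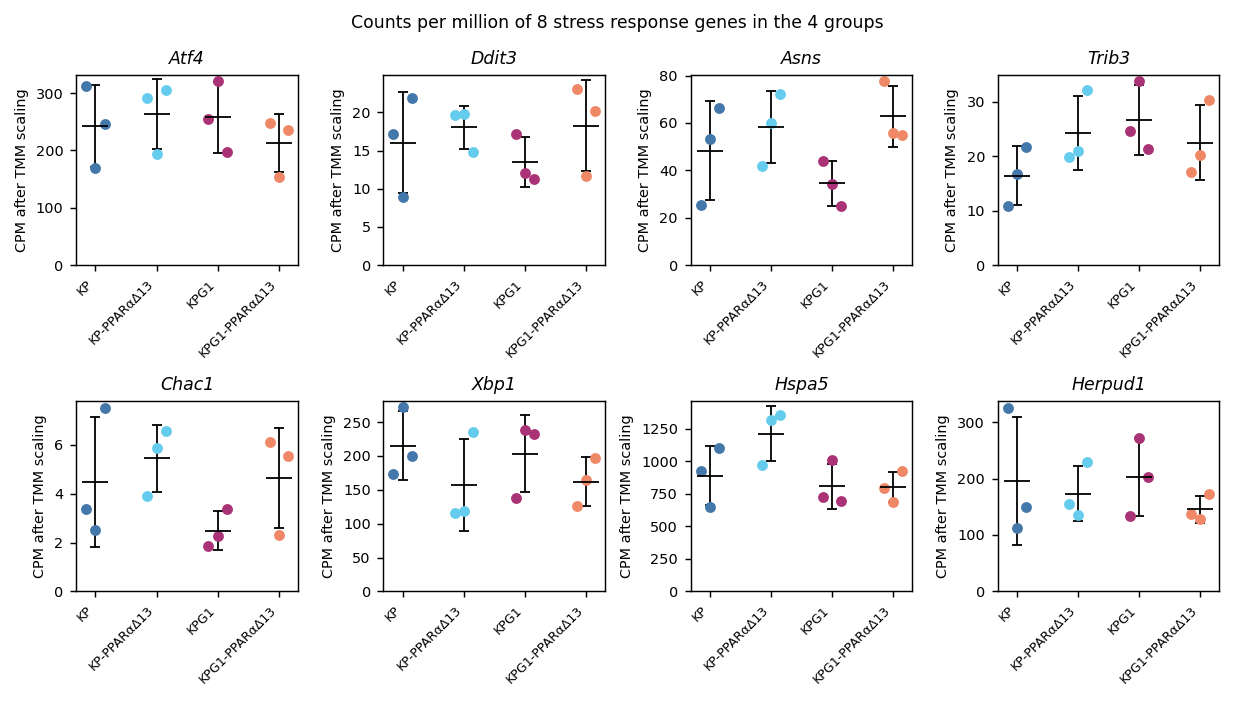
Each panel shows 1 gene, with the CPM after TMM scaling on an axis from 0, a point for each of the 3 tumors of a group, and the group mean with its SD as a horizontal line and bars. *Asns* separates KPG1 (25.1 to 44.1 CPM) from KPG1-PPARαΔ13 (54.9 to 77.8), *Hspa5* separates KP-PPARαΔ13 (970.4 to 1356) from KPG1-PPARαΔ13 (690.5 to 926), and for *Atf4* all groups overlap.

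In the ER arm, *Xbp1* had 173, 272 and 200.2 CPM in KP, 116, 119 and 236 in KP-PPARαΔ13, 138, 239 and 233 in KPG1 and 125, 164 and 197 in KPG1-PPARαΔ13. Its 2 lowest tumors were both in KP-PPARαΔ13, and the groups overlapped. *Ern1* had 83.4, 272 and 132 CPM in KP, 102, 76.1 and 120.2 in KP-PPARαΔ13, 104, 110.4 and 97.1 in KPG1 and 68.8, 133 and 136 in KPG1-PPARαΔ13. KP 2 stood far above the other 11 tumors, which did not exceed 136.4 CPM. *Atf6* ranged from 56.8 CPM (also KP 2) to 150.5.

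*Hspa5*, the chaperone BiP, had 925, 649 and 1100.3 CPM in KP, 970.4, 1316 and 1356 in KP-PPARαΔ13, 726, 1007 and 695 in KPG1 and 792, 690.5 and 926 in KPG1-PPARαΔ13. KP-PPARαΔ13 was the highest group (mean 1214 ± 212 CPM, SD, n = 3), above every KPG1-PPARαΔ13 tumor (803 ± 118) but overlapping KP (891 ± 228) and KPG1 (809 ± 172). *Calr* had 1044, 549 and 816 CPM in KP, 954, 965 and 999 in KP-PPARαΔ13, 731, 959 and 730.2 in KPG1 and 672, 709 and 724 in KPG1-PPARαΔ13. Its 3 KP-PPARαΔ13 tumors and its 3 KPG1-PPARαΔ13 tumors were each close together (SD 23.2 and 26.8 CPM) and apart from each other, whereas the KP tumors spread over both.

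*Dnajb11* had 60.3, 41.05 and 57.9 CPM in KP, 105, 81.96 and 70.5 in KP-PPARαΔ13, 45.2, 59.9 and 44.5 in KPG1 and 36.6, 45.9 and 53.2 in KPG1-PPARαΔ13. Each KP-PPARαΔ13 tumor exceeded all 9 others, which reached 60.3 CPM. *Sdf2l1*, a partner of that co-chaperone in the ER, had 13.9, 5.58 and 9.29 CPM in KP, 18.6, 11.5 and 14.6 in KP-PPARαΔ13, 3.84, 12.7 and 7.47 in KPG1 and 5.70, 8.23 and 9.20 in KPG1-PPARαΔ13. Here as well KP-PPARαΔ13 lay above KPG1-PPARαΔ13 without overlap, but KP and KPG1 each reached into its range. *Creld2*, an ER protein induced by stress, ranged from 17.6 to 55.0 CPM, *Manf*, a stress-induced secreted factor, from 19.9 to 55.4, and *Hyou1*, which exchanges nucleotides on BiP, from 69.5 to 183.0. *Canx* (254.8 to 473 CPM), *Pdia3* (639 to 1252), *Pdia4* (221 to 411), *Pdia6* (409.9 to 719), *Dnajb9* (48.7 to 128.6) and *Dnajc3* (95.4 to 177.0) completed the folding factors, with the highest tumor of each no more than 2.64-fold above the lowest.

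Among the ERAD genes, *Herpud1*, a membrane component of the degradation complex, had 326, 112 and 150.2 CPM in KP, 155, 136 and 229 in KP-PPARαΔ13, 135, 273 and 202 in KPG1 and 137, 128 and 173 in KPG1-PPARαΔ13. KP 1 was the highest, and the groups overlapped. *Sel1l* had 256, 558 and 382 CPM in KP, 319.8, 305 and 249 in KP-PPARαΔ13, 332, 281 and 252 in KPG1 and 195, 624 and 270.3 in KPG1-PPARαΔ13. KP 2 and KPG1-PPARαΔ13 2 held far more of it than the other 10 tumors, which stayed at or below 382 CPM. *Syvn1*, the ubiquitin ligase that SEL1L supports, did not share these peaks and ranged from 46.7 to 123.2 CPM.

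The effect of the doxycycline diet with PPARαΔ13 was first tested in the KP mice. In KP-PPARαΔ13 against KP, 0 of the 35 genes passed an adjusted p of 0.05 in edgeR's quasi-likelihood test with Benjamini-Hochberg adjustment, where 0.00605% of all genes did. At an unadjusted p under 0.05 there was 1 of 35 (2.86%), beside 11.4% of all genes, and 1 gene had groups that did not overlap, beside 13.3% of all genes. Both were *Dnajb11*, with 53.1 ± 10.5 CPM in KP and 85.7 ± 17.5 in KP-PPARαΔ13 (SD, n = 3 each) and a log2 difference of 0.69 (standard error, SE, 0.23, edgeR adjusted p = 0.334). Summed CPM of 2 marker lists also separated these groups, 112.6 to 241 against 266 to 529 for 6 fibroblast genes (*Lum* at 0 in 1 tumor) and 319 to 765 against 849.9 to 1320 for 5 red cell genes, none of which was at 0, and their part in the result was not tested. The next smallest p-values belonged to *Ern1* (log2 fold change -0.71, SE 0.39) and *Eif2ak3* (0.37, SE 0.21), and the value of *Ern1* was -0.12 without KP replicate 2 and that of *Eif2ak3* 0.19 without KP-PPARαΔ13 replicate 3 and 0.11 with sex as a covariate. *Hspa5* differed by 0.45 (95% interval -0.12 to 1.01) and *Atf4* by 0.12 (-0.52 to 0.76) on the log2 scale, neither past the threshold. Without KP replicate 2 the log2 fold change of *Hspa5* was 0.26 and that of *Atf4* -0.09.

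Described as a group, 10 of the 14 genes of the ATF4 arm and 11 of the 21 of the ER arm had a positive log2 fold change in this comparison. Of all 16527 genes 8133 did. The medians of the arms were 0.22 and 0.09 beside -0.01 over all genes tested. The 14 chaperones and folding factors had a median of 0.16, 9 of them positive, and the 4 ERAD genes a median of -0.15. The mean log2 CPM of the ATF4 arm was 5.48 ± 0.18 in KP and 5.67 ± 0.24 in KP-PPARαΔ13, and that of the ER arm 7.39 ± 0.14 and 7.49 ± 0.12 (SD, n = 3 each), so both arms overlapped between the groups. Without KP replicate 2 the medians were 0.08 in the ATF4 arm and -0.04 in the ER arm, and without KP-PPARαΔ13 replicate 3 they were 0.11 and 0.04.

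**Figure D3:**
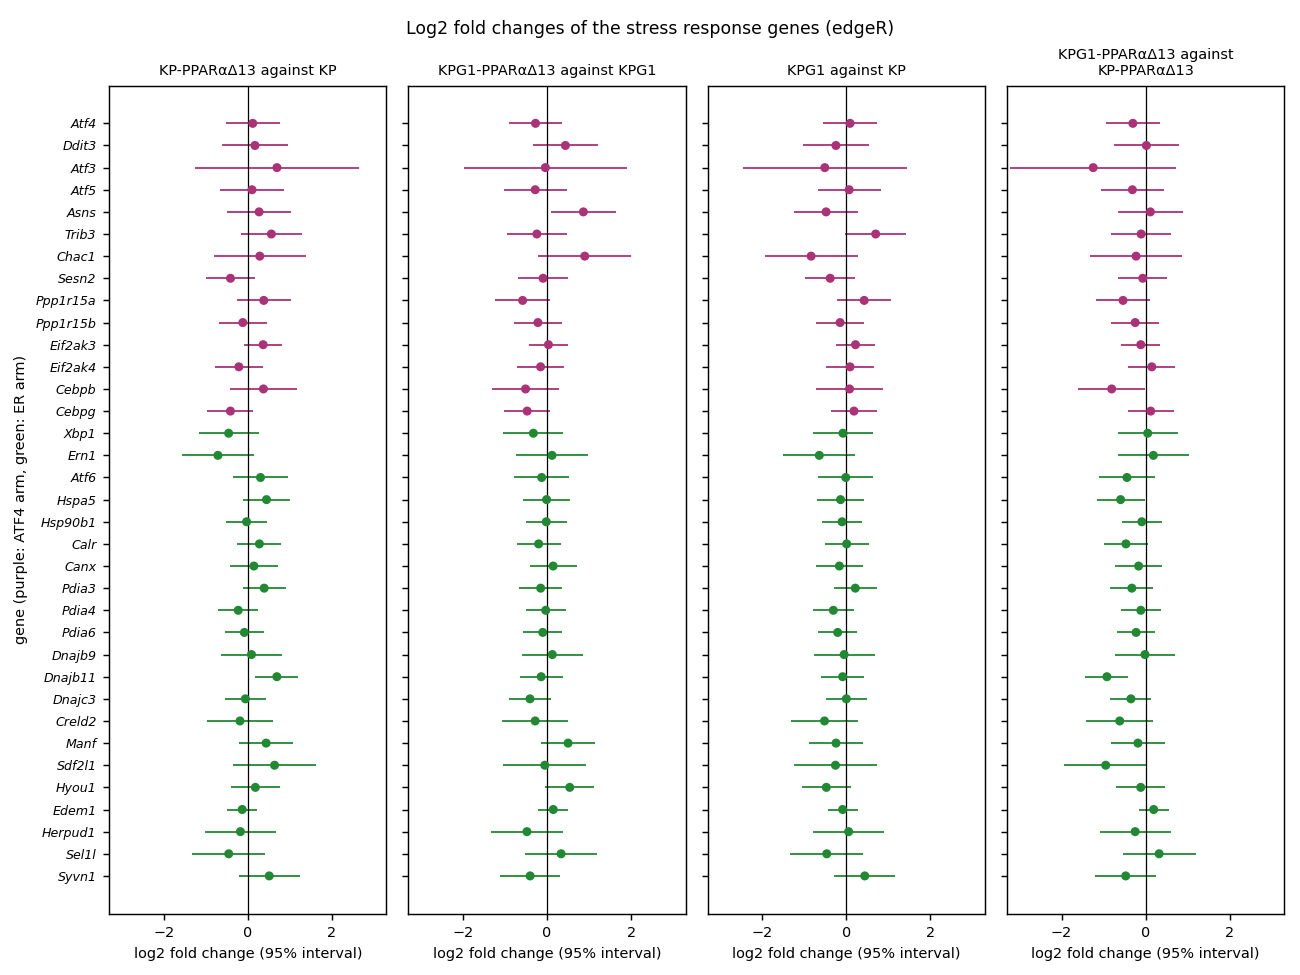
Points are log2 fold changes from edgeR and lines their 95% intervals for each of the 35 genes in 4 comparisons, purple for the ATF4 arm and green for the ER arm, with a black line at no difference. *Dnajb11* lies right of the line in the first panel (0.69) and left of it in the last (-0.92), *Asns* lies right of it in the second (0.86), and most other intervals cross it.

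The same question was asked in mice with floxed *Slc2a1*. In KPG1-PPARαΔ13 against KPG1, 0 of 35 genes passed the adjusted threshold (0.00605% of all genes), 1 had an unadjusted p under 0.05 (2.86%, beside 10.8% of all genes), and 3 had groups that did not overlap (8.57%, beside 20.6%). The first was *Asns*, at 34.5 ± 9.52 CPM in KPG1 and 62.8 ± 13.003 in KPG1-PPARαΔ13 (SD, n = 3 each) and a log2 difference of 0.86 (SE 0.35, edgeR adjusted p = 0.435). *Cebpg*, a bZIP partner of ATF4, and *Calr* were lower in every KPG1-PPARαΔ13 tumor than in any KPG1 tumor, with log2 fold changes of -0.47 (SE 0.25) and -0.20 (SE 0.24) and edgeR adjusted p-values of 0.524 and 0.781. For *Cebpg* the tumors had 190.3, 164 and 134 CPM in KPG1 and 106, 124 and 121 in KPG1-PPARαΔ13. *Hyou1* (0.54, SE 0.26) and *Ppp1r15a* (-0.58, SE 0.30) had the next smallest p-values without passing the threshold. Without KPG1 replicate 2 the value of *Calr* was -0.09 and that of *Hyou1* 0.85, and *Calr* was at -0.30 without KPG1 replicate 3 and *Hyou1* at 0.34 without KPG1 replicate 1. The value of *Ppp1r15a* was -0.29 without KPG1-PPARαΔ13 replicate 2, -0.94 without replicate 1 and -0.99 with sex as a covariate.

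In this comparison 4 of 14 genes of the ATF4 arm and 7 of 21 of the ER arm had a positive log2 fold change. Of all 16527 genes 8624 did. The medians of the arms were -0.19 and -0.05 beside 0.02 over all genes. Without a tumor the medians of the arms ranged from -0.37 to -0.09 (without KPG1 replicates 3 and 2) and from -0.16 to -0.0049 (without KPG1-PPARαΔ13 replicates 3 and 1). *Hspa5* differed by -0.01 (95% interval -0.58 to 0.55) and *Atf4* by -0.28 (-0.91 to 0.36). The arm levels were 5.46 ± 0.19 and 5.39 ± 0.20 mean log2 CPM for the ATF4 arm in KPG1 and KPG1-PPARαΔ13, and 7.25 ± 0.25 and 7.22 ± 0.16 for the ER arm. Marker lists of 5 cell types separated these groups. Those of alveolar type 2 epithelium (7 genes), the cells named above for their use of the ER, summed to 42171 to 69270 CPM in KPG1 and 23893 to 36302 in KPG1-PPARαΔ13, and those of alveolar type 1 epithelium (5 genes) to 1669 to 2321 and 596 to 1026. The macrophage and monocyte list (5 genes measured), mostly through *Cd74* and *Lyz2*, summed to 3199.9 to 5036 and 723 to 3157. Its other genes, *Ptprc*, *Cd68* and *Csf1r*, did not exceed 31.5, 23.7 and 18.6 CPM in any tumor. The plasma cell list, through *Sdc1*, summed to 1103 to 1469 and 993 to 1101. The 4 T and NK cell genes, at 0.231 to 0.654 and 0.677 to 3.48 CPM, were higher in KPG1-PPARαΔ13 but low throughout. No gene of the first 3 lists was at 0 in any tumor, and *Lyz2* is in both the type 2 and the macrophage list, whereas *Cd3g* was at 0 in 3 tumors and *Cd3e* and *Nkg7* in 1 each. The part of these lists in the values was not tested.

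Whether the response to the diet with PPARαΔ13 differed between the genotypes was tested as an interaction. It passed the adjusted threshold for 0 of the 35 genes and for 0.0% of all genes, and at an unadjusted p under 0.05 for 2 of 35 (5.71%) beside 11.8% of all genes. These were *Ppp1r15a*, with a difference of the 2 log2 fold changes of -0.96 (SE 0.42, edgeR adjusted p = 0.411), and *Dnajb11*, with -0.83 (SE 0.33, edgeR adjusted p = 0.389). *Ppp1r15a* had 101, 77.1 and 126 CPM in KP, 139, 125 and 131 in KP-PPARαΔ13, 132, 149.9 and 126 in KPG1 and 131, 49.9 and 91.5 in KPG1-PPARαΔ13. Its lowest value by far was KPG1-PPARαΔ13 2. *Syvn1* followed with -0.91 (SE 0.47), which was -0.56 without KPG1 replicate 2. A fit that included sex gave an interaction of -0.47 for *Syvn1* and -1.75 for *Ppp1r15a*. The median interaction was -0.22 in the ATF4 arm, -0.02 in the ER arm and 0.03 over all genes, and that of the ER arm turned to 0.03 with upper-quartile scaling and to 0.025 with a filter at a mean of 20 CPM. With sex as a covariate the medians were -0.40 in the ATF4 arm and -0.15 in the ER arm, and without a tumor they ranged from -0.33 (without KPG1 replicate 3) to -0.09 (without KP-PPARαΔ13 replicate 3) and from -0.18 (without KPG1 replicate 3) to -0.01 (without KPG1 replicate 2). The sex term of the fit with that covariate came from the doxycycline groups alone.

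The genotypes were then compared on the same diet. In KPG1 against KP on the regular diet, 0 of 35 genes passed the adjusted threshold (0.0363% of all genes), 0 had an unadjusted p under 0.05 (6.23% of all genes) and 0 had groups without overlap (9.95%). The smallest p-values were those of *Trib3*, with a log2 fold change of 0.70 (SE 0.33, edgeR adjusted p = 0.787), *Hyou1* (-0.48, SE 0.26) and *Chac1* (-0.84, SE 0.50). The value of *Chac1* was -0.24 without KP replicate 3 and -0.09 with sex as a covariate, and that of *Hyou1* was -0.28 without KPG1 replicate 1 and -0.80 without KPG1 replicate 2. *Hspa5* differed by -0.14 (95% interval -0.71 to 0.43) and *Atf4* by 0.09 (-0.55 to 0.72). Of the 14 chaperones and folding factors 12 had a negative log2 fold change, with a median of -0.15, beside 8782 of all 16527 genes. The medians were 0.07 in the ATF4 arm and -0.10 in the ER arm beside -0.03 over all genes. The sign of the ATF4 arm's median was negative with sex as a covariate (-0.04) and with the tumors of a mouse summed (-0.02). The sex-adjusted values here carry over a sex term estimated only in the doxycycline groups, since sex and genotype cannot be told apart on the regular diet.

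On the doxycycline diet no member was called between the genotypes by edgeR, and the members' shares at an unadjusted p and without overlap were near those of all genes. In KPG1-PPARαΔ13 against KP-PPARαΔ13, all 14 chaperones and folding factors had a negative log2 fold change, beside 8175 of all 16527 genes. Their median was -0.28, beside 0.01 over all genes. They reached from -0.02 for *Dnajb9* to -0.95 for *Sdf2l1*, none past the adjusted threshold. Of all 35 genes 0 passed it, where 0.0303% of all genes did. At an unadjusted p under 0.05 there were 3 (8.57%, beside 9.69% of all genes), and 5 had groups that did not overlap (14.3%, beside 17.6%), each of them lower in KPG1-PPARαΔ13. *Dnajb11* was lowest in p, at 85.7 ± 17.5 CPM in KP-PPARαΔ13 and 45.2 ± 8.30 in KPG1-PPARαΔ13 (SD, n = 3 each) and a log2 difference of -0.92 (SE 0.23, edgeR adjusted p = 0.462). DESeq2 called this gene (log2 fold change -0.94, adjusted p = 0.0356), the only call of a member in any alternative, where the adjusted p of the alternatives reached from 0.0356 to 0.903. In this comparison DESeq2 called 155 of all genes, where edgeR called 5. *Hspa5* differed by -0.60 (SE 0.26, edgeR adjusted p = 0.505), *Calr* by -0.47 (SE 0.24, edgeR adjusted p = 0.535), *Sdf2l1* by -0.95 (SE 0.45, edgeR adjusted p = 0.520) and *Cebpb* by -0.81 (SE 0.37, edgeR adjusted p = 0.513).

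*Cebpb* rested on few reads, with 4.56, 5.04 and 6.80 CPM in KP-PPARαΔ13 and 2.08, 4.07 and 3.20 in KPG1-PPARαΔ13, and shares 20.7% of its exon bases with *Tmem189* on the opposite strand. *Atf4* differed by -0.31 (95% interval -0.94 to 0.33), the ATF4 arm had 10 of 14 genes with a negative log2 fold change and a median of -0.17, and the ER arm 17 of 21 and a median of -0.23. Without KP-PPARαΔ13 replicate 3 these medians were -0.02 and -0.13, and without KPG1-PPARαΔ13 replicate 3 they were -0.33 and -0.33. As mean log2 CPM the ER arm stood at 7.49 ± 0.12 in KP-PPARαΔ13 and 7.22 ± 0.16 in KPG1-PPARαΔ13 (SD, n = 3 each). The lowest tumor of the former (7.40) was only slightly above the highest of the latter (7.35), beside a pooled SD within groups of 0.17. In this comparison 17.6% of all single genes did not overlap either, and replicates 1 and 3 of KPG1-PPARαΔ13 came from the same mouse. Several marker lists parted these groups as well: 6 fibroblast genes summed to 266 to 529 CPM against 127 to 183 (*Lum* at 0 in 1 tumor), 5 genes of alveolar type 1 epithelium to 1416 to 2733 against 596 to 1026, 3 neutrophil genes to 3.71 to 8.54 against 0.955 to 1.54, and the plasma cell list, through *Sdc1*, to 1298 to 1904 against 993 to 1101. Their part in the difference was not tested.

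The 2 contrasts that average these comparisons use the same tumors and are no independent evidence. For the diet over both genotypes, 0 of 35 genes passed the adjusted threshold (0.0182% of all genes) and 3 had an unadjusted p under 0.05 (8.57%, beside 10.1%). These were *Asns* (log2 fold change 0.57, SE 0.25, edgeR adjusted p = 0.476), *Manf* (0.47, SE 0.21) and *Cebpg* (-0.44, SE 0.18), the last at -0.29 without KP replicate 2. *Manf* had 29.3, 29.4 and 43.1 CPM in KP, 42.5, 39.9 and 55.4 in KP-PPARαΔ13, 24.2, 41.8 and 19.9 in KPG1 and 40.1, 33.1 and 48.1 in KPG1-PPARαΔ13. It was lowest in KPG1 3 and highest in KP-PPARαΔ13 3, and the 2 diets overlapped within each genotype. The arm medians were -0.07 for ATF4 and 0.04 for the ER, beside 0.01 over all genes.

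For the genotype over both diets, 0 of 35 genes passed the adjusted threshold (0.0484% of all genes) and 2 had an unadjusted p under 0.05 (5.71%, beside 4.53%). These were *Dnajb11* (log2 fold change -0.51, SE 0.16, edgeR adjusted p = 0.976) and *Creld2* (-0.57, SE 0.26, edgeR adjusted p = 0.976), the latter at -0.37 without KP replicate 1. *Creld2* had 54.98, 19.8 and 35.99 CPM in KP, 34.3, 24.3 and 38.9 in KP-PPARαΔ13, 20.6, 35.6 and 21.02 in KPG1 and 20.5, 17.6 and 25.4 in KPG1-PPARαΔ13. KP 1 was its highest tumor, and the genotypes overlapped on both diets. Of the 35 genes 30 had a negative log2 fold change, 20 of the 21 of the ER arm among them, beside 8629 of all 16527 genes. The medians were -0.12 in the ATF4 arm, -0.21 in the ER arm and -0.01 over all genes. The members are not independent of each other, and sex and genotype cannot be told apart in the tumors on the regular diet. *Hspa5* differed by -0.37 (95% interval -0.77 to 0.03).

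The 35 genes did not move as a block from tumor to tumor. Correlations of log2 CPM over the 12 tumors are given as a description without a p-value, since the tumors share mice and groups. The median Pearson r was 0.22 over the 210 pairs within the ER arm, 0.03 over the 91 pairs within the ATF4 arm, 0.14 over the 294 pairs between the arms and -0.0015 over all pairs of genes tested. After the group means were subtracted, the first 3 medians were 0.20, 0.12 and 0.15. Among the 8 ER arm genes whose promoter holds the ERSE letters, such as *Hspa5* and *Calr* above, the median was 0.40 over 28 pairs (22 positive), and among the 10 ER arm genes with a promoter but no match it was 0.09 over 45 pairs (25 positive). The 5 genes with CARE letters had a median of 0.06 over 10 pairs. After the group means were subtracted these medians were 0.35, 0.12 and 0.26. The ER arm genes with and without ERSE letters also differed in role. Those with it were folding factors and *Syvn1*, while those without it included *Xbp1*, *Ern1*, *Edem1*, *Herpud1* and *Sel1l*. Single pairs ranged from -0.18 to 0.80 with the letters and from -0.72 to 0.85 without. The part of the motif in these values was not tested.

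**Figure D4:**
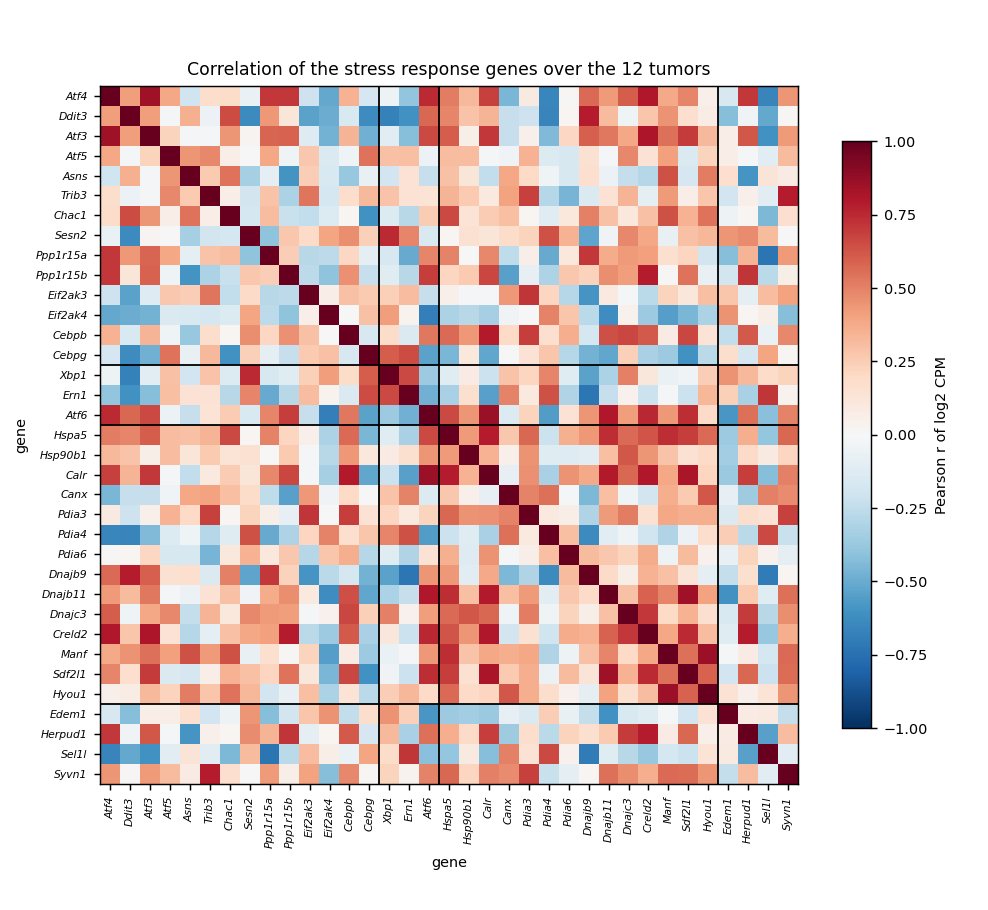
Each square gives the Pearson r of log2 CPM of 2 of the 35 genes over the 12 tumors, red for positive and blue for negative, with black lines between the ATF4 arm, the sensors, the folding factors and ERAD. *Hspa5* is red with *Calr* (0.78), *Manf* (0.73) and *Sdf2l1* (0.69), *Sel1l* is blue with many genes, and the square of the ATF4 arm is mixed.

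The transcript of *Atf4* went with some genes of its arm and not with others. Its r was -0.20 with *Asns* (Spearman's rho -0.23), 0.18 with *Trib3* (0.28), 0.18 with *Chac1* (0.03) and 0.42 with *Ddit3* (0.20), and without the 2 tumors farthest from the median of *Atf4* the r with *Ddit3* was -0.13. With *Atf3* it was 0.85 (rho 0.81), and 0.82 without those 2 tumors. *Ppp1r15a* and *Ppp1r15b* had an r of 0.71 with *Atf4* each, and *Herpud1*, the ER arm gene with CARE letters, 0.71 as well. ER arm genes with a promoter but no CARE letters lay on both sides, such as *Creld2* (0.80), *Calr* (0.69), *Pdia4* (-0.65) and *Sel1l* (-0.66). ATF4 is set largely by translation, so that its RNA is no measure of its activity. Among all genes tested, the 5 most like *Asns* were *Rab3b* (r = 0.91), *Plxna1* (0.90), *C030014I23Rik* (0.89), *Slc6a8* (0.89) and *Hmces* (0.89). None of them is a member, and the closest member, *Manf* (r = 0.64), ranked 409 of 16526.

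For *Hspa5* the 5 most alike were *Sf3b4* (r = 0.91), *Cdhr2* (0.90), *Tceb2* (0.89), *Hspb1* (0.88), a small heat shock protein, and *Hsf2bp* (0.88). The members nearest to it were *Calr* (r = 0.78, rank 75 of 16526), *Dnajb11* (0.74, rank 157), *Manf* (0.73, rank 171) and *Sdf2l1* (0.69, rank 306). *Xbp1* was not alike, with an r of -0.12. The r of *Hspa5* with *Calr* was 0.69 after the group means were subtracted, and that with *Dnajb11* 0.39. Without the 2 tumors farthest from the median, r was 0.69 with *Calr* and 0.96 with *Dnajb11*.

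Some members, the most variable gene *Atf3* among them, moved with immediate early genes, which cells also switch on while a tissue is taken apart, as was done here. The mean log2 CPM of 14 such genes, *Fos*, *Jun* and *Egr1* among them, was lowest in KPG1-PPARαΔ13 2 (6.18) and KP 2 (6.59) and highest in KP-PPARαΔ13 3 (8.16). With this level *Atf3* had an r of 0.91 over the 12 tumors (rho 0.96, r 0.90 without the 2 tumors farthest from the median), *Atf4* 0.84 (rho 0.84, r 0.62) and *Ppp1r15a* 0.82 (rho 0.74, r 0.46). In the ER arm *Creld2* (r 0.725, 0.60 without the 2 farthest tumors), *Calr* (0.69, 0.56), *Herpud1* (0.65, 0.51), *Hspa5* (0.59, 0.31) and *Sdf2l1* (0.56, 0.61) rose with it as well. The mean level of the ATF4 arm, which includes *Atf3*, had an r of 0.82 with it (0.66 without the 2 farthest tumors). That of the ER arm had 0.47 (0.49). *Asns* and *Trib3* did not follow it, with r of -0.16 and 0.07. *Chac1* had an r of 0.43, which was 0.14 without the 2 farthest tumors. *Sel1l* and *Ern1* ran against it, with r of -0.77 and -0.53 that were -0.30 and -0.15 without those tumors. In the ER arm 14 of 21 genes and in the ATF4 arm 9 of 14 were positively correlated with it, with medians of 0.33 and 0.30. These 14 genes were 0.31 higher in median log2 fold change in KP-PPARαΔ13 than in KP and had a median of -0.59 in KPG1-PPARαΔ13 against KP-PPARαΔ13, where 13 of 14 were negative. In KPG1-PPARαΔ13 against KPG1 their median was -0.44 (11 of 14 negative), for the interaction -0.80 (12 of 14 negative) and for KPG1 against KP 0.04 (7 of 14 negative). The part of these genes in the members' differences was not tested.

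**Figure D5:**
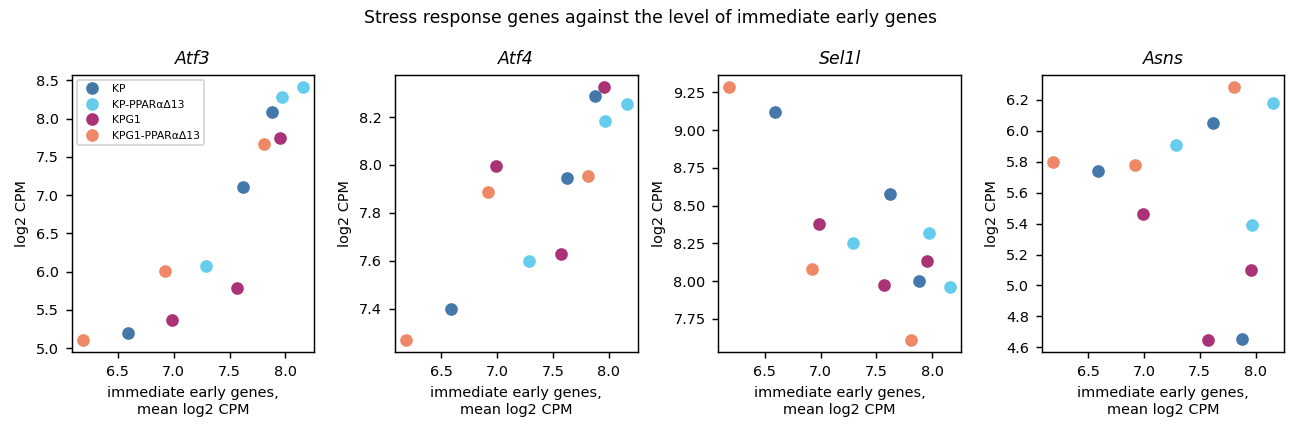
Each point is a tumor, colored by group, with the mean log2 CPM of the 14 immediate early genes on the horizontal axis and the log2 CPM of 1 gene on the vertical axis. *Atf3* and *Atf4* climb with the immediate early level (r = 0.91 and 0.84), *Sel1l* is high in the 2 tumors with the lowest level, and *Asns* shows no trend (r = -0.16).

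Other genes of the same pathways were counted in the same fits. Of 43 further ATF4 targets (amino acid synthesis and transport, aminoacyl-tRNA synthetases and others), 13 of the ISR machinery, 26 of ER folding, 39 of ERAD and translocation, 10 mitochondrial and 10 cytosolic chaperones and proteases, 0 passed the adjusted threshold of edgeR's quasi-likelihood test in any of the 7 comparisons. In KP-PPARαΔ13 against KP, 35 of the 43 ATF4 targets had a positive log2 fold change (median 0.26), with an unadjusted p under 0.05 for 4 higher and 1 lower, a share near the 11.4% of all genes. Positive values were also found for 9 of 10 mitochondrial genes (median 0.28, 2 higher) and 27 of 39 ERAD and translocation genes (median 0.15, 1 higher). Of those 5 targets, *Nars*, an aminoacyl-tRNA synthetase, differed by 0.99 (standard error 0.33), the arginine transporter *Slc7a1* by 0.99 (standard error 0.38), *Ddit4* by 0.60 (standard error 0.20) and the death receptor *Tnfrsf10b* by 0.65 (standard error 0.28), and the enzyme *Cth*, cystathionine gamma-lyase, was lower (-0.96, standard error 0.43).

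In KPG1-PPARαΔ13 against KPG1 the 43 ATF4 targets had a median of 0.05, with 24 positive, 3 higher and 2 lower at an unadjusted p under 0.05, near the 10.8% of all genes. The synthetases *Iars* (0.94, standard error 0.31) and *Mars* (0.47, standard error 0.20) and the serine enzyme *Shmt2* (0.72, standard error 0.30) were the higher ones on the log2 scale, and the glutamine transporter *Slc1a5* (-0.74, standard error 0.20) and the cystine transporter *Slc7a11* (-1.55, standard error 0.67) the lower ones. *Slc7a11* differed in the opposite direction between the genotypes on the regular diet, by 1.88 (standard error 0.67) in KPG1 against KP, a comparison that shares the KPG1 tumors. In KPG1-PPARαΔ13 against KP-PPARαΔ13, 14 of the 43 targets were positive (median -0.19), 13 of the 39 ERAD and translocation genes (median -0.14), 3 of the 10 mitochondrial genes (median -0.26) and 3 of the 10 cytosolic heat shock genes (median -0.51).

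On the regular diet, KPG1 against KP had 25 of 43 ATF4 targets positive (median 0.09), 3 higher and 1 lower at an unadjusted p under 0.05, beside 6.23% of all genes. Of the 26 ER folding genes 17 were positive in KP-PPARαΔ13 against KP (median 0.17) and 8 in KPG1-PPARαΔ13 against KPG1 (median -0.17), with the oxidase *Ero1lb* (-1.07, standard error 0.33) the lowest p in the former and the site-2 protease *Mbtps2* (0.76, standard error 0.26), which cleaves ATF6, in the latter. The 13 genes of the ISR machinery had medians between -0.11 and 0.19 in the 7 comparisons, and the eIF2B subunit *Eif2b5* differed by 0.55 (standard error 0.19) in KP-PPARαΔ13 against KP.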

How the data were processed

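RNA of the CD45-negative fraction of 12 lung tumors, 3 per group, was sequenced single-end from stranded mRNA libraries. The authors trimmed the reads with cutadapt (1.4.2 in the submitters' notes), aligned them to mm10 with HISAT2, counted them with featureCounts 1.4.4 and deposited the counts per gene without normalization, and these deposited counts were used. The strand setting of the counting is not given in the sources used here, and 14 of the 35 genes share exon bases with another gene, only *Cebpb* over 20%. The deposited log2 values were not used, and 0 columns matched no sample.

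Groups and replicate numbers came from the labels. From the counts, edgeR 4.0.16 (R 4.3.3; TMM factors 0.89 to 1.07, filterByExpr, glmQLFit and glmQLFTest) fitted the 12 tumors together with 8 residual degrees of freedom, and p-values were adjusted by Benjamini-Hochberg over 16527 genes at 0.05. The biological coefficient of variation was 0.44, so the spread between tumors, more than the depth of 25263794 to 32654223 counts, set the precision. Replicates are separate tumors, and those of the same mouse are not independent. Standard errors are the log2 fold change over the square root of F. CPM are TMM-scaled, log2 CPM had a prior count of 2, and RPKM used exon lengths of GENCODE M21. Motifs were searched in RefSeq promoters of GRCm38.p6.

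The members, lists and rules were chosen with earlier results of these data known. Named are 8 fixed genes, members called, without overlap between groups or with the 3 smallest p-values in a comparison, and the 5 genes most correlated with *Asns* and *Hspa5*; the members described for their spread or correlation with *Atf4* and the immediate early genes, and the list genes named, were chosen after their values were seen. Alternatives were limma 3.58.1 voom, DESeq2 1.42.0, upper-quartile scaling, no filter, a fit of the compared groups alone, a filter at a mean of 20 CPM, sex as a covariate, the replicate block, tumors of a mouse summed, each tumor left out, and for the arm levels a prior count of 0.5. The sex covariate is estimated only from the doxycycline groups, since the KP tumors were all female and the KPG1 tumors all male. Its use for the regular diet assumes the same sex difference there. The fits were tested on simulated data with the same spread for every gene, smaller than that found here, and independent samples. Since these tumors share mice, that test does not show how often the fits err in these data.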

Additional observations from a re-analysis of the deposited data

How the results depend on the processing

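No member was called in any comparison under limma voom, upper-quartile scaling, no filter, a fit of the compared groups alone, a filter at a mean of 20 CPM, sex as a covariate, tumors of the same mouse summed or without any single tumor (0 to 0 members), and DESeq2 called 1, *Dnajb11*, in KPG1-PPARαΔ13 against KP-PPARαΔ13 (log2 fold change -0.94). The replicate numbers do not pair the tumors, since the deviations of same-numbered tumors correlated between -0.17 and 0.09, and with the number as a block 0 members were called. All 120 alternative values of the arm medians and 168 without a tumor moved by less than the spread between tumors. That spread, the pooled SD of the arm level within groups, was 0.21 in the ATF4 arm and 0.17 in the ER arm. Most arm medians were themselves smaller than it, so this limit cannot show that they were stable, and medians near 0 changed sign. The ATF4 arm had -0.12 to 0.12 in KPG1 against KP and -0.15 to 0.04 for the diet over both genotypes without a tumor, and the ER arm -0.04 to 0.24 in KP-PPARαΔ13 against KP. For single members, the log2 fold change of *Hspa5* turned to 0.010 (upper-quartile scaling) and 0.00102 (a mean of 20 CPM) in KPG1-PPARαΔ13 against KPG1 and to 0.11 with sex as a covariate in KPG1 against KP, and without a tumor it ranged from -0.15 to 0.14 and -0.32 to 0.043. That of *Atf4* ranged without a tumor from -0.088 to 0.34 in KP-PPARαΔ13 against KP and -0.12 to 0.31 in KPG1 against KP, negative without KP replicate 2 in both, KP-PPARαΔ13 replicate 3 in the former and KPG1 replicate 2 in the latter.

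The number of all genes called was small and depended on the test. For PPARαΔ13 in KP, PPARαΔ13 in KPG1, the genotype on the regular diet, the genotype on the doxycycline diet, the diet over both genotypes, the genotype over both diets and the interaction it was 1, 1, 6, 5, 3, 8 and 0 with edgeR and 372, 211, 60, 155, 288, 39 and 286 with DESeq2. It was 0 for PPARαΔ13 in KPG1 with limma voom. Without a filter it was 2 for PPARαΔ13 in KP and 5 for the diet, and with a filter at a mean of 20 CPM 2 and 1 for the genotype on the regular and the doxycycline diet and 1 for the genotype over both. With the compared groups alone it was 0 for PPARαΔ13 in KP and in KPG1, and 10 for the genotype on the regular diet. With sex as a covariate it was 0 for PPARαΔ13 in KP and 2 for the genotype on each diet. The replicate block gave 0 and 2 for PPARαΔ13 in KP and in KPG1, 3 for the genotype on the doxycycline diet and 5 for the genotype over both. With the tumors of a mouse summed it was 0 for PPARαΔ13 in KP and in KPG1, 2 for the genotype on each diet and 3 over both. Without a tumor it ranged, in the order above, from 0 to 1, 0 to 2, 2 to 6, 2 to 10, 2 to 13, 6 to 11 and 0 to 0. The cause of these differences was not tested.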

Other observations

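Among all 16526 other genes tested, *Slc2a1*, the glucose transporter that the KPG1 mice carry floxed, ranked 2 by its correlation with *Dnajb11* over the 12 tumors (r = 0.94, rho 0.91, 0.82 after the group means were subtracted, 0.88 without the 2 tumors farthest from the median). The pair was chosen after its values were seen, and the tumors share mice and groups. *Slc2a1* had 153, 115.1 and 108.1 CPM in KP-PPARαΔ13, 41.7, 35.3 and 57.7 in KP, 30.2, 64.0 and 39.9 in KPG1 and 23.7, 53.2 and 54.5 in KPG1-PPARαΔ13. The KP-PPARαΔ13 tumors thus lay above the 9 others for both genes. How many of all genes have this pattern was not counted, so it cannot be called particular to the pair.

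*Xbp1* and *Ern1*, whose products act in sequence, had an r of 0.66 (0.64 after the group means were subtracted), and *Ern1* and *Sel1l* 0.72, which was 0.41 without the 2 tumors farthest from the median. *Atf6* and *Calr* had an r of 0.86, and *Manf* and *Hyou1* 0.85. These pairs, too, were chosen after their values were seen.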
